A study of Mus musculus with 9 samples.

Results

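The H2 genes are the major histocompatibility complex (MHC) genes of the mouse. All genes of mm9 chromosome 17 whose symbol begins with H2- were taken from the GENCODE M1 annotation, which gave 42 of 37310 annotated genes. Each was widened by 20 kb on either side, and the windows merged into 15 blocks that cover 1.34 Mb between chr17:34055766 and chr17:37640497. Of the 190262 peaks in the 5 lists analysed, 412 fell in these windows. The genes were 3 classical class I genes (H2-K1, H2-D1 and the pseudogene H2-K2), 27 nonclassical class I genes of the Q, T, M and Bl groups, 10 class II genes, and 2 genes that match by symbol alone: H2-Ke2, a prefoldin subunit, and H2-Ke6, a steroid dehydrogenase. A pair of genes shares the symbol H2-Q2 and is told apart by identifier.

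The peaks come from ChIP-seq of lymphocyte progenitors of RAG1-/- C57BL/6 mice, which cannot rearrange their antigen receptor genes. Antibodies to CTCF were used on pre-B cells and on IL7-cultured pro-B cells (7 days), and antibodies to Rad21, a cohesin subunit, on pre-B cells, CD4-CD8- double-negative (DN) thymocytes and CD4+CD8+ double-positive (DP) thymocytes. Pro-B and DN cells carry the RAG1 deletion alone, the pre-B cells also a rearranged IgM transgene, and the DP cells also a rearranged TCRβ transgene, so the later stages are reached through a transgene. Bone marrow donors were 6 to 14 weeks old and thymus donors 4 to 8 weeks. Each condition has 1 library, so differences between conditions have no replicate check and were not tested. Peak lists hold no expression values, so the labelled cell types could not be checked against marker genes. CTCF in thymocytes was not analysed here.

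Class I molecules carry peptides from inside the cell to CD8 T cells and are made by nearly all cells. Class II molecules carry peptides from endosomes to CD4 T cells and are made mainly by antigen-presenting cells, B cells among them, and not by mouse thymocytes. CTCF is a DNA-binding protein that halts cohesin as it extrudes chromatin loops, and its sites have a direction: by convention a site points from its CCAC end to its GGC end. Loops tend to form between sites that point at each other.

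The class I genes arose by duplication, and several CTCF sites were near-copies of each other. The CTCF consensus was the HOMER de novo motif. A stretch of 52 bases, made of a 12-base match to it with 20 bases on each side, was compared between the 49 pre-B CTCF peaks of the windows that held a match with at most 2 mismatches. Of these, 16 fell into 5 groups whose members were joined by identity of at least 80%. Across groups no pair shared more than 31 of 52 bases. The sequences below are from mm9, read on the strand that runs from CCAC to GGC, with the match in capitals. The largest group lay 3.3 to 4.21 kb upstream of 6 class I genes and every copy pointed toward its gene. Its members shared 47 to 51 of the 52 bases.
Upstream of H2-K2, chr17:34119276-34119327 (minus strand): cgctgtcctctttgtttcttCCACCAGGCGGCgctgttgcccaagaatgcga
Upstream of H2-K1, chr17:34140556-34140607 (minus strand): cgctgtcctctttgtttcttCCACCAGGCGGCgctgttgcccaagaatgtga
Upstream of H2-Q8, chr17:35526910-35526961 (plus strand): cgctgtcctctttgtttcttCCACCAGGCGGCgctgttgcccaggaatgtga
Upstream of H2-Q6, chr17:35557589-35557640 (plus strand): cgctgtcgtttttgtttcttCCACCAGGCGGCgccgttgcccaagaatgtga
Upstream of H2-Q7, chr17:35571962-35572013 (plus strand): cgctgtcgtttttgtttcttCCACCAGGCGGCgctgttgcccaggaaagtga
Upstream of H2-Q10, chr17:35602796-35602847 (plus strand): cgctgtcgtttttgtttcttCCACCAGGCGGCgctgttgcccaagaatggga

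Further groups tied other class I genes together. A group of 3 lay downstream of H2-K2 and H2-D1 and far upstream of the first H2-Q2, and shared 46 to 48 bases.
Downstream of H2-K2, chr17:34105607-34105658 (plus strand): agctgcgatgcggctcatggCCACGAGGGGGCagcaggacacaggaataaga
Downstream of H2-D1, chr17:35411873-35411924 (minus strand): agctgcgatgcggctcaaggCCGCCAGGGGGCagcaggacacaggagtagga
Upstream of H2-Q2 (ENSMUSG00000079507), chr17:35439090-35439141 (minus strand): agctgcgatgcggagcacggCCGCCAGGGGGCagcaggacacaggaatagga
Another group of 3, sharing 46 to 49 bases, belonged to the T genes, and all its members pointed toward the nearest start.
Upstream of H2-T22 and past the end of H2-Bl, chr17:36197952-36198003 (minus strand): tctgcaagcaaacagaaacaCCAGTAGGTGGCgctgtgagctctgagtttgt
Upstream of H2-T9, chr17:36269003-36269054 (minus strand): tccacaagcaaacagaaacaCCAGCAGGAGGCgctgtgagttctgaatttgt
Upstream of H2-T3, chr17:36330669-36330720 (minus strand): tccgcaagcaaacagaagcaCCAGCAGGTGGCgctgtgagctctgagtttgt
The last 2 groups were pairs that shared 51 of 52 bases, and each pair had 1 member beside H2-T23 and 1 beside H2-T10. The pair that was also bound by Rad21 in every cell type is shown.
Between H2-T23 and H2-T22, chr17:36172437-36172488 (minus strand): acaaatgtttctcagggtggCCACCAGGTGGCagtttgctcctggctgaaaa
Downstream of H2-T10, chr17:36251389-36251440 (minus strand): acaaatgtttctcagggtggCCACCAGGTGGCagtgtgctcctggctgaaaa

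Sites without a near-copy in the set are shown for the class II genes and for the strongest place of all. The H2-DMa site matched the consensus with 0 mismatches, the H2-Ab1 site with 1, and the other 2 with 2 mismatches.
In H2-DMa, chr17:34272344-34272395 (plus strand): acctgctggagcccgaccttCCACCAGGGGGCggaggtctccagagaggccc
Upstream of H2-Ob, chr17:34372095-34372146 (minus strand): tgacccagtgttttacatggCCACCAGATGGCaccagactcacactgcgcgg
Intron of H2-Ab1, chr17:34401150-34401201 (minus strand): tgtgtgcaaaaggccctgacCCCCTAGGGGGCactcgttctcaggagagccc
Beyond the end of H2-T24, chr17:36134009-36134060 (plus strand): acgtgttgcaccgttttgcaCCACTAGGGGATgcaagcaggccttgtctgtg

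Within the windows each near-copy of these sequences lay under a peak. Searching all windows for 52-base stretches at least 80% identical to a member found the same 16 places and no others. Since the groups were built from pre-B CTCF peaks, CTCF at all 16 is given by construction, but the other lists were not used: IL7-cultured pro-B CTCF, pre-B Rad21 and DP Rad21 peaks also overlapped all 16, and DN Rad21 peaks 10 of them. Over the whole pre-B CTCF list the same overlaps were 96% for IL7-cultured pro-B CTCF, 63.5% for pre-B Rad21, 52% for DP and 22% for DN, so the overlap with the cultured list is near that of any pre-B CTCF peak. The 16 are near-copies in 5 groups, not independent places. At the 6 upstream class I copies, pre-B CTCF peaks stood at percentiles 90.1 to 99.1, where the percentile is the percent of peaks of the same list with a lower score. The H2-Q7 copy was highest at 99.1 and the H2-Q10 copy lowest at 90.1. In the IL7-cultured pro-B list the order differed, with H2-Q7 lowest at 78.9 and H2-Q10 next at 80.1. Pre-B Rad21 at the same copies stood at 73.9 to 94.5, and DP Rad21 at 47.7 to 93.4. H2-Q10 was lowest in both Rad21 lists, and DN Rad21 was called at 5 copies and not at H2-Q10. In the pair of T copies shown, DP Rad21 stood at 97.8 and 95.6. Over the whole pre-B CTCF list, peaks with pre-B Rad21 had a median percentile of 66.8 and those without 23.3. Rad21 overlap at whole-list CTCF peaks ranked like these copies was not computed.

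The authors kept reads that align to up to 3 places and reported every such place, so near-identical copies can share reads. In the peaks over the 6 upstream copies, 13.7% (H2-K1) to 61.6% (H2-Q7) of 36-base words recurred elsewhere on chromosome 17, against a median of 7.18% over the 101 pre-B CTCF peaks of the windows. Words at more than 3 places made up 1.72% to 10.3%. The part of shared reads in these peaks was not tested.

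The upstream position was also counted over all class I and class II genes. A pre-B CTCF peak centred 2 to 5 kb upstream of the start was present at 3 of 3 K and D genes, 4 of 7 Q genes, 3 of 7 T and Bl genes, 0 of 13 M genes and 2 of 10 class II genes, against 10.8% of all protein-coding genes. At the class I genes these peaks cover the printed copies, save at H2-D1. This zone was chosen after the peaks had been seen, so its counts are a description. Pre-B Rad21 lay there at 3, 4, 3, 0 and 2 genes, against 7.45% of all protein-coding genes, DP Rad21 at 3, 4, 3, 0 and 2 (7.99%) and DN Rad21 at 3, 3, 1, 0 and 2 (2.56%). In class II the CTCF peaks were those of H2-DMa and H2-Ob and the pre-B Rad21 peaks those of H2-Ob and H2-Ea-ps. H2-D1 had its upstream place at 4.09 kb, with no near-copy of the 6 sequences. It stood at 95.3 in pre-B CTCF, 92.7 in pre-B Rad21, 55.9 in DN and 87.7 in DP.

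**Figure D1:**
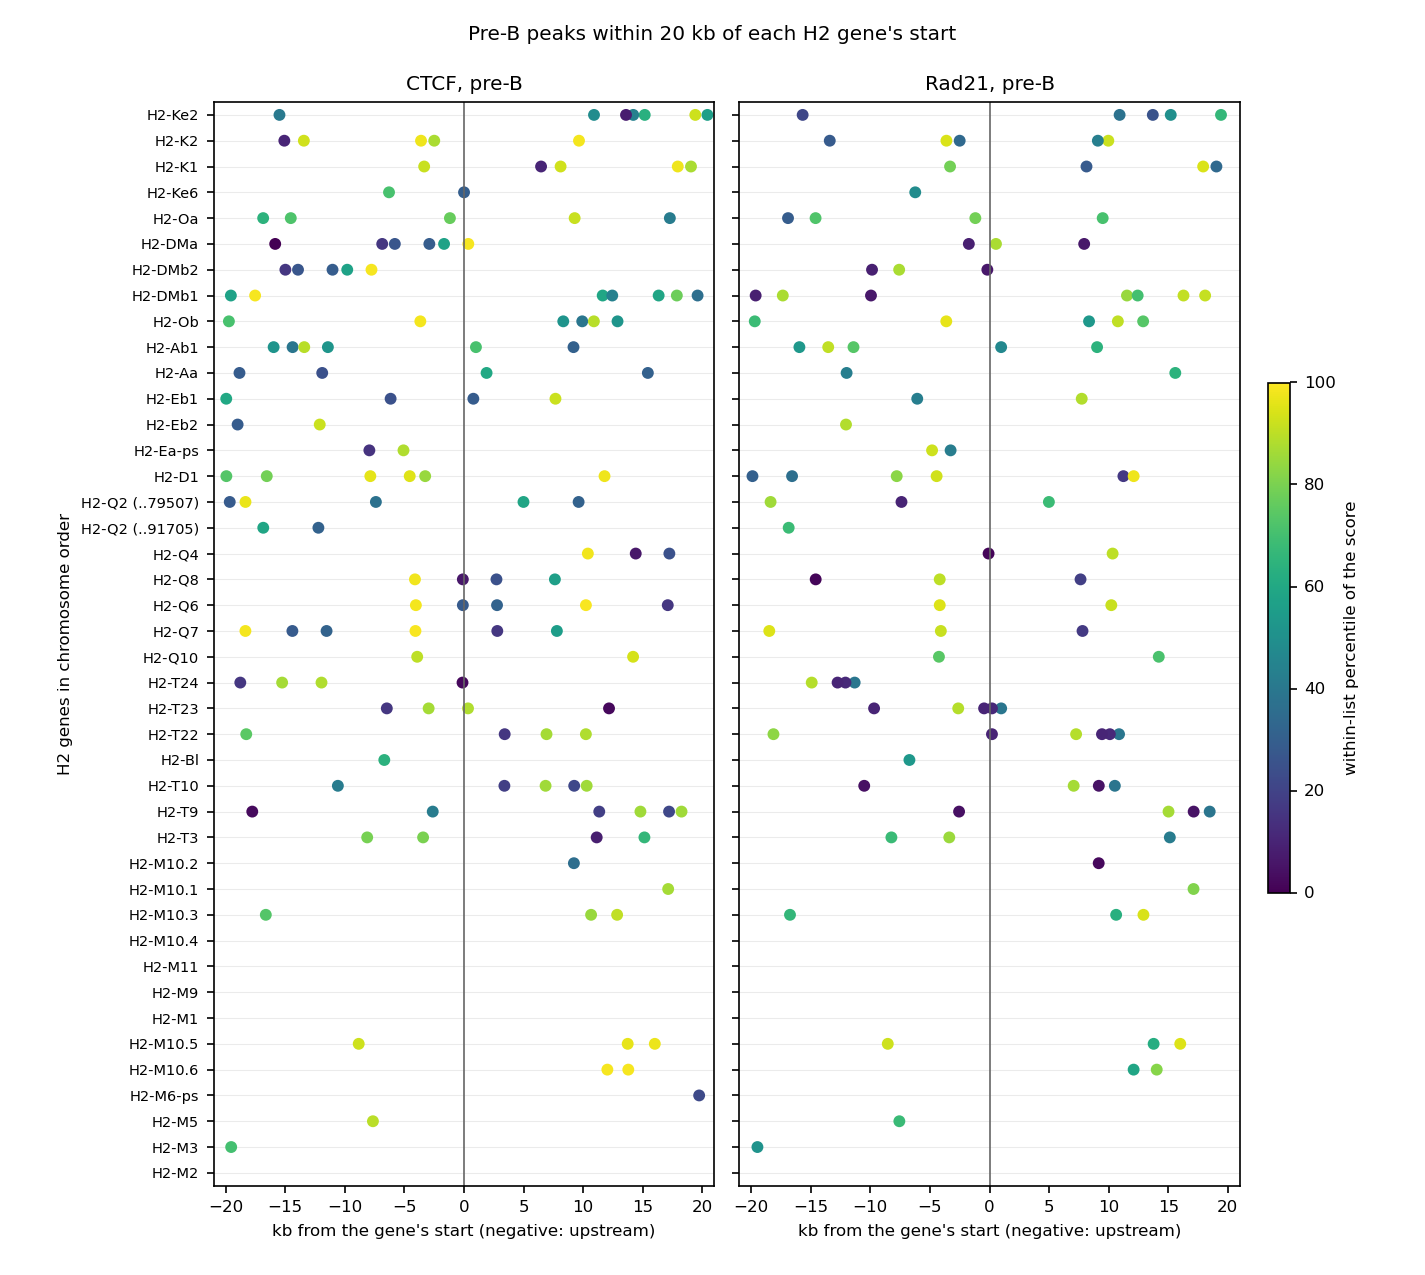
Pre-B CTCF peaks (left) and pre-B Rad21 peaks (right) by distance in kb from the start of each of the 42 H2 genes, in chromosome order, coloured by within-list percentile. High-percentile peaks line up near 4 kb upstream of H2-K2, H2-K1, H2-D1, H2-Q8, H2-Q6, H2-Q7 and H2-Q10, while H2-M10.4, H2-M11, H2-M9, H2-M1 and H2-M2 have none.

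Peaks were denser around the H2 genes than over the genome. The windows held 101 pre-B CTCF peaks, or 75.2 per Mb against 16.0 per Mb over chromosomes 1 to 19 and X, a ratio of 4.70. IL7-cultured pro-B CTCF had 121 peaks and a ratio of 3.35, pre-B Rad21 80 and 5.16, DN Rad21 29 and 5.87, and DP Rad21 81 and 4.33. As a share of each list this was 0.239% (exact 95% interval 0.195 to 0.290) for pre-B CTCF and 0.299% (0.2 to 0.429) for DN Rad21. The sequence between the windows was also dense, with 58.4 pre-B CTCF peaks per Mb, and genes were crowded, with 96.1 annotated genes per Mb in the windows against 14.1 over the genome. The part of gene density in the peak counts was not tested.

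The blocks were not alike. The D window (H2-D1 alone) held 134 pre-B CTCF and 134 pre-B Rad21 peaks per Mb, from 6 peaks each. The class II stretch held 122 and 86.7 per Mb, the K stretch 116 and 101, the Q stretch 87.6 and 56.7, and the T stretch 86.4 and 76.8. The M stretch, the longest at 0.513 Mb, held 27.3 and 23.4.

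**Figure D2:**
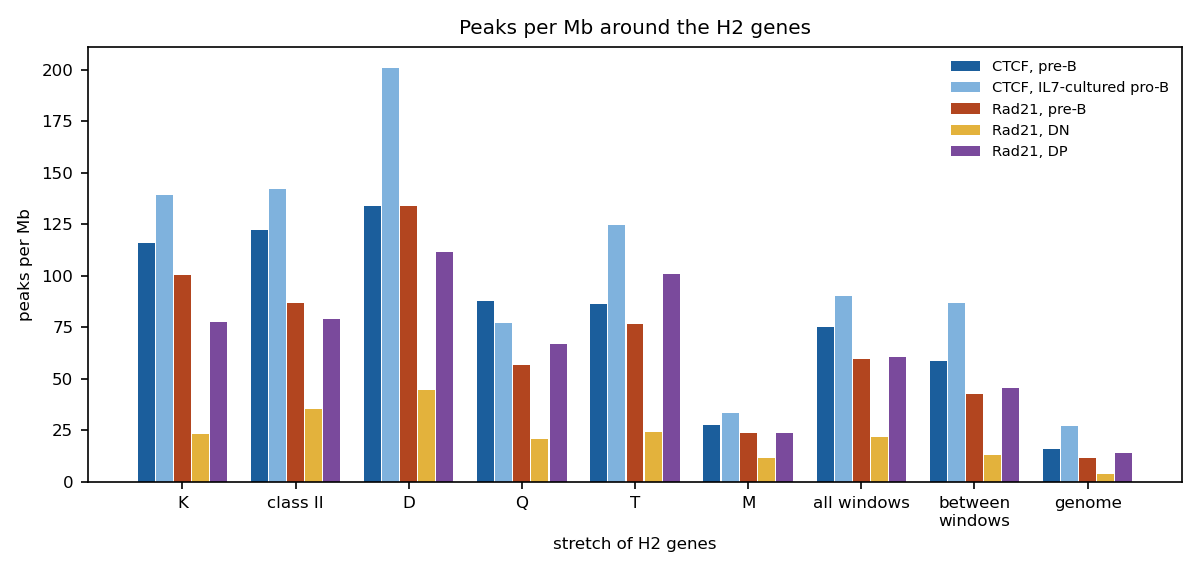
Peaks per Mb in each stretch of H2 genes, over all windows, in the sequence between the windows, and over chromosomes 1 to 19 and X, with 1 bar per peak list. The M stretch is the lowest of the 6 stretches in each list, and the windows as a whole exceed the genome average in each list.

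No peak of any list fell in the windows of 5 M genes, H2-M10.4, H2-M11, H2-M9, H2-M1 and H2-M2. All but H2-M2 belong to a family expressed in vomeronasal neurons and lie in a single gap of 307 kb without any peak (chr17:36555709-36862815). Of 83428 gaps between neighbouring places of the 5 lists genome-wide, 1.31% were at least as long. In the gap 18.3% of 36-base words occur at more than 3 places of chromosome 17, where reads of that length would have been dropped, against 7.22% for the whole chromosome. The 5 windows without peaks held 8.80% (H2-M11) to 20.6% (H2-M10.4). Some windows with peaks held as much, such as H2-T23 at 22.5% and H2-Ob at 19.7%, and others less. The part of dropped reads in the gap was not tested. The related H2-M10.1, H2-M10.2, H2-M10.3, H2-M10.5 and H2-M10.6 had peaks in their windows, with pre-B CTCF at percentile 98.7 at 12 kb from H2-M10.6.

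Peaks lay within gene bodies less often than over the genome in every list. A peak was placed at a promoter if it touched 1 kb upstream to 100 bp downstream of any annotated gene's start, within a gene if it touched a gene but no promoter, and between genes otherwise. Of pre-B CTCF peaks 24 of 101 were at promoters (23.8%, 15.9 to 33.3, against 11.1% of the whole list), and 45 were between genes (44.6%, 34.7 to 54.8, against 40.1%). The 32 within genes made up 31.7% (22.8 to 41.7), against 48.9%. Of pre-B Rad21 peaks 19 of 80 were at promoters (23.8%, 14.9 to 34.6, against 11.7%) and 38 between genes (47.5%, 36.2 to 59.0, against 41%). DP Rad21 had 24 of 81 at promoters (29.6%, 20 to 40.8, against 17.5%) and 38 between genes (46.9%, 35.7 to 58.3, against 36.6%). DN Rad21 had 2 of 29 at promoters (6.90%, 0.846 to 22.8, against 7.3%) and 22 between genes (75.9%, 56.5 to 89.7, against 47.6%). In IL7-cultured pro-B cells 24 of 121 CTCF peaks were at promoters (19.8%, 13.1 to 28.1, against 10.4%) and 52 between genes (43.0%, 34.0 to 52.3, against 40.6%). The intervals cover counting error only. The windows hold 96.1 annotated genes per Mb against 14.1 over the genome, so promoters fill more of their sequence. The part of this in the promoter shares was not tested. With the 3 Rad21 lists limited to equal length, the share between genes was 71.4% for DP (53.7 to 85.4, against 42.2% of the shortened list) and 67.6% for pre-B (50.2 to 82.0, against 45.4%), near the DN share. The promoter share was then 8.57% for DP (1.80 to 23.1, against 14%) and 13.5% for pre-B (4.54 to 28.8, against 8.1%), so the higher DP promoter share did not hold.

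Of the 24 pre-B CTCF peaks at promoters, 7 lay at the promoter of an H2 gene, and 42 of the 129 genes in the windows are H2 genes. A peak of any list lay at the promoter of 14 of the 42 H2 genes and of 11 of the 36 that are protein-coding, against 39.9% of all protein-coding genes. Among the 36 protein-coding H2 genes, pre-B CTCF lay at 6 (16.7%), near the 18% of all protein-coding genes, IL7-cultured pro-B CTCF at 6 (16.7% against 27.1%), pre-B Rad21 at 6 (16.7% against 14.3%), DN Rad21 at 1 (2.78% against 2.42%) and DP Rad21 at 7 (19.4% against 26.1%). None of H2-K1, H2-K2 and H2-D1, the classical class I genes, had a promoter peak. Nor did H2-Ab1, H2-Aa and H2-Eb1, which encode the class II chains that present peptide. These absences rest on the promoter definition. With a promoter of 2.5 kb either side, 22 H2 genes had a peak, H2-K2, H2-Ab1, H2-Aa and H2-Eb1 among them, each with pre-B CTCF, while H2-K1 and H2-D1 still had none.

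Among class II genes H2-DMa, H2-Oa and H2-DMb2 had a promoter peak, while H2-DMb1, H2-Ob, H2-Eb2 and H2-Ea-ps also had none in any list. H2-DMa, a chain of the H2-M molecule that exchanges class II peptides, was the one H2 gene with a promoter peak in all 5 lists. Its peak stood at percentile 98.8 in pre-B CTCF, 98.9 in IL7-cultured pro-B CTCF, 87.3 in pre-B Rad21, 53.9 in DN and 92.7 in DP, and its match, printed above, lies 0.242 kb inside the gene. The centre of the merged place is exonic in 1 of 2 transcripts. H2-Oa, a chain of H2-O, which restrains H2-M, stood at 76.6 and 76.8 in the CTCF lists, 78.9 in pre-B Rad21 and 39.4 in DP. A DN Rad21 peak at 33.7 lay just short of its promoter. H2-DMb2, a second H2-M β chain whose coding transcripts begin farther downstream in the annotation, had a pre-B Rad21 peak alone, at 6.33.

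Among class I genes the promoter peaks differed from list to list. H2-T23, which encodes Qa-1, a ligand of natural killer cell receptors, stood at 88.2 in pre-B CTCF, 31.0 in IL7-cultured pro-B CTCF and 11.7 in pre-B Rad21. The pre-B CTCF peak there also covers the copy 1.14 kb inside the gene, over which the cultured list has a separate peak at 96.6, so these CTCF values are of unlike peaks. H2-T24 stood at 2.13 in pre-B CTCF, 61.3 in IL7-cultured pro-B CTCF and 58.1 in DP Rad21. H2-T22, a ligand of γδ T cell receptors, stood at 47.7 in IL7-cultured pro-B CTCF, 10.1 in pre-B Rad21 and 35.6 in DP. DP Rad21 alone touched the promoters of the second H2-Q2 (ENSMUSG00000091705, percentile 71.6), H2-T10 (29.1) and H2-M3 (33.4), which presents formylated peptides. At equal list length these 3 genes had no promoter peak in any list, H2 genes with one numbered 8 in place of 14, and H2-DMa was the one left with DP Rad21. H2-Q4 stood at 70.8 in DP and 1.45 in pre-B Rad21. Pre-B CTCF alone touched H2-Q6 (28.4) and H2-Q8 (6.28), and IL7-cultured pro-B CTCF alone touched the pseudogene H2-M6-ps (36.2). H2-Ke6 had CTCF at 29.6 in pre-B and 39.1 in IL7-cultured pro-B cells.

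**Figure D3:**
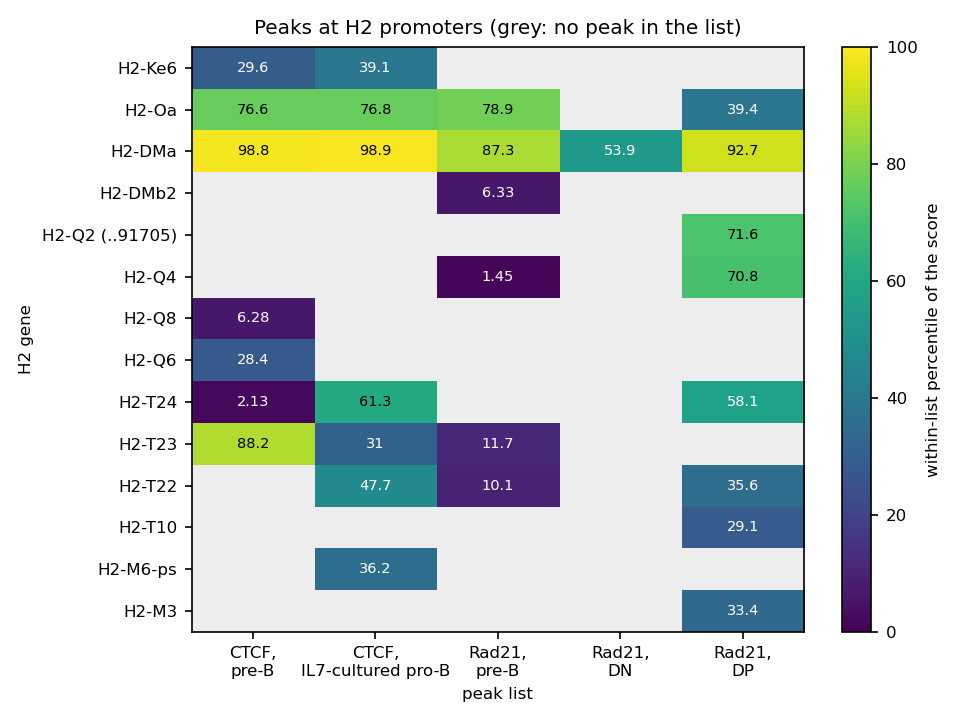
Within-list percentile of the peak at the promoter of each of the 14 H2 genes that has one, by peak list, with grey where the list has no peak there. H2-DMa is the only row filled in all 5 columns, and H2-Q2 (ENSMUSG00000091705), H2-T10 and H2-M3 are filled in the DP column alone, calls that are lost when the lists are limited to equal length.

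Peaks between genes ranked above the others in every list but DN Rad21. In the pre-B CTCF list the median percentile was 84.4 for the 45 peaks between genes, 57.5 for the 32 within genes and 65.4 for the 24 at promoters, beside 52.1, 48.2 and 50.1 for the same classes of the whole list. For pre-B Rad21 the medians were 79.9, 53.3 and 33.9, beside 53.8, 49.6 and 37.7. For DP Rad21 they were 77.0, 62.1 and 40.3, beside 53.4, 48.9 and 46.6. The 22 DN peaks between genes had a median of 50, the 5 within genes 69.9 and the 2 at promoters 70.4. Over all windows the median was 66.3 for pre-B CTCF, 67.1 for pre-B Rad21, 66.3 for DP and 50.3 for DN.

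The strongest place was near H2-T24, at chr17:36133790-36134718, 7922 bp past the end of H2-T24 and within the annotated gene A930015D03Rik. Its pre-B Rad21 peak ranked 3 of 30488 and its DP peak 12 of 36743, its DN peak ranked 416 of 9701, and its pre-B CTCF percentile was 99.7. In the class II stretch the strongest places were the H2-DMa promoter for CTCF and the site 3.67 kb upstream of H2-Ob, the H2-O β chain gene, for Rad21. The latter stood at 98.1 in pre-B CTCF, 96.2 in pre-B Rad21, 81.8 in DN and 99.4 in DP. Beside H2-D1 the downstream copy printed above stood at 97.3 in pre-B CTCF, 97.6 in pre-B Rad21, 90.4 in DN and 96.1 in DP. In the K stretch the leading pre-B Rad21 and DP place was the copy upstream of H2-K2, at 94.3 and 93.4. In the Q stretch the copy upstream of H2-Q6 led pre-B Rad21 at 94.5, and the 3′ end of the first H2-Q2 led DP at 91.9. Near H2-T3, which encodes the thymus leukaemia antigen, the copy at 3.46 kb led these lists, with pre-B CTCF at 80.1, pre-B Rad21 at 85.0 and DP at 96.1. Near H2-M10.1 DP stood at 94.6, near H2-M10.3 pre-B Rad21 at 94.1, and near H2-M10.5 pre-B Rad21 at 94.6 and DP at 77.9. The weakest leaders lay near H2-M5 (DP 45.8) and H2-M3 (DP 33.4, at its promoter).

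CTCF and cohesin were found together in pre-B cells. Of pre-B CTCF peaks 74 of 101 overlapped a pre-B Rad21 peak (73.3%, 63.5 to 81.6), against 63.5% of the whole list. In turn 76 of 80 pre-B Rad21 peaks overlapped CTCF (95%, 87.7 to 98.6), against 88.1%. The shares were 13 of 15 in the K stretch, 21 of 31 in class II, 5 of 6 in D, 10 of 17 in Q, 13 of 18 in T and 12 of 14 in M. CTCF peaks with Rad21 had a median percentile of 79.7 and those without 26.8, beside 66.8 and 23.3 over the whole list. Both libraries share 1 input.

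Thymocyte Rad21 was set beside pre-B CTCF. All 29 DN peaks overlapped a pre-B CTCF peak, where 96.1% of the whole DN list did. Of DP peaks 64 of 81 did (79.0%, 68.5 to 87.3, against 60.3%). It was 34 of 38 for DP peaks between genes (89.5%, 75.2 to 97.1, against 65.9%) and 13 of 24 at promoters (54.2%, 32.8 to 74.4, against 45.7%). Read from CTCF, 64 of 101 pre-B CTCF peaks overlapped DP Rad21 (63.4% against 52%) and 29 overlapped DN Rad21 (28.7% against 22%).

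Rad21 peaks of the 3 cell types merged into 104 sites. Of these, 29 were called in pre-B, DN and DP (27.9%, 19.5 to 37.5, against 18.7% genome-wide), 26 in pre-B and DP (25.0%, 17 to 34.4, against 25.1%), 24 in pre-B alone (23.1%, 15.4 to 32.4, against 20.6%) and 25 in DP alone (24.0%, 16.2 to 33.4, against 33.6%). Peaks that only adjoin stay separate sites. The sites called in pre-B alone at chr17:34106426-34106856, chr17:35410642-35411181, chr17:36169195-36169993 and chr17:36170000-36170508 share a pre-B CTCF peak with a neighbouring Rad21 site that DP also calls. No site was called in DN alone, in DN and pre-B alone or in DN and DP alone, where the genome shares were 0.31%, 0.831% and 0.94%, and the exact interval of 0 of 104 reaches 3.48%. The lists differ in length, and limiting each to the 9701 best scores left 43 sites. Of these 23 were in all 3 cell types (53.5%, 37.7 to 68.8, against 33.2%), 3 in pre-B alone (6.98% against 14.8%) and 5 in DP alone (11.6% against 15.6%). There were then 6 in pre-B and DP (14.0% against 6.5%), 4 in pre-B and DN (9.30% against 8.94%), 1 in DN and DP (2.33% against 7.90%) and 1 in DN alone (2.33% against 13.0%).

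**Figure D4:**
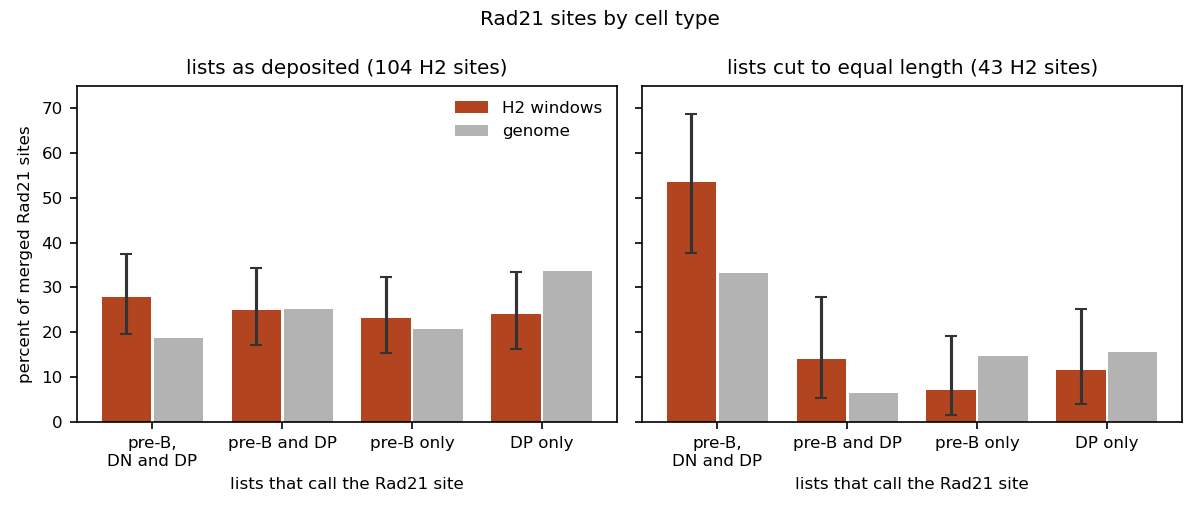
Percent of merged Rad21 sites called in each combination of cell types, for the H2 windows (bars with exact 95% intervals) and the genome (grey), with the lists as deposited (left, 104 H2 sites) and limited to equal length (right, 43 H2 sites). The share called in all 3 cell types is above the genome share in both panels, and with lists as deposited the DP-only share is below it.

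Of the 29 shared sites, 21 lay between genes, where 46.4% of such sites genome-wide do, 4 within genes and 4 at promoters, where 8.34% do. All 29 carried a CTCF peak in both B-lineage lists, as did 99.4% genome-wide. By stretch there were 3 in K, 9 in class II, 2 in D, 4 in Q, 5 in T and 6 in M. In class II they stood 14.5 and 1.18 kb upstream of H2-Oa, at the H2-DMa promoter, 12.1, 16.4 and 18 kb from the start of H2-DMb1, 3.67 kb upstream and 10.7 kb downstream of the start of H2-Ob, and 4.82 kb upstream of H2-Ea-ps, the inactive Eα gene of C57BL/6 mice. In the class I stretches they were the copies upstream of H2-K2, H2-K1, H2-Q8, H2-Q6 and H2-Q7, the copies downstream of H2-K2 and H2-D1, the place 4.09 kb upstream of H2-D1, a place 14.1 kb from the start of H2-Q10, and 5 places around H2-T24, H2-T22, H2-Bl and H2-T10. Those among the M genes lay near H2-M10.1, H2-M10.3, H2-M10.5 and H2-M5.

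The class II genes held 9 sites called in pre-B alone and 7 in DP alone. In the block from H2-Oa to H2-DMb1, 3 of 16 sites were called in pre-B alone and 6 in DP alone. In the block from H2-Ob to H2-Ea-ps, which holds the genes of the presenting chains, 6 of 12 were called in pre-B alone and 1 in DP alone. The shares of all sites genome-wide were 20.6% and 33.6%. This split was noticed in the counts and was not tested. At equal list length it was lost, with 0 pre-B and 1 DP site left in the first block and 1 pre-B and 0 DP sites in the second. The pre-B sites of the second block stood at 73.8 and 53.5 within the longest gene model of H2-Ob, 64.2 within that of H2-Aa, 46.5 in an intron of H2-Ab1, 42.4 upstream of H2-Eb1 and 42.2 upstream of H2-Ea-ps. The H2-Ab1 site carried CTCF at 70.9 in pre-B and 71.6 in IL7-cultured pro-B cells, and its sequence is printed above. The DP site of that block lay in an intron of H2-Aa, at 59.9, over a CTCF peak at 59.8 in pre-B cells. In H2-Eb1 an intronic site was called in both pre-B (88.6) and DP (75.3).

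Outside class II the pre-B sites of highest percentile lay near H2-M10.3 (63.2), H2-M10.5 (62.0) and H2-M3 (51.3). The DP sites of highest percentile stood near H2-Oa (75.6), at the promoter of the second H2-Q2 (71.6), at the 3′ end of H2-K2 (62.1), in H2-Aa (59.9), near H2-M10.2 (58.6) and at the H2-T24 promoter (58.1). Of the 6 pre-B and the 6 DP sites of highest percentile, 1 of each kind kept a call at equal list length, near H2-Ob and near H2-Oa. A B-lineage CTCF peak lay at 22 of the 24 pre-B sites, where the genome share for such sites was 85.4%, and at 13 of the 25 DP sites, where it was 34.3%. At promoters of some gene lay 12 of the 25 DP sites, beside 23.3% of such sites genome-wide, and 6 of the 24 pre-B sites, beside 9.13%.

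**Figure D5:**
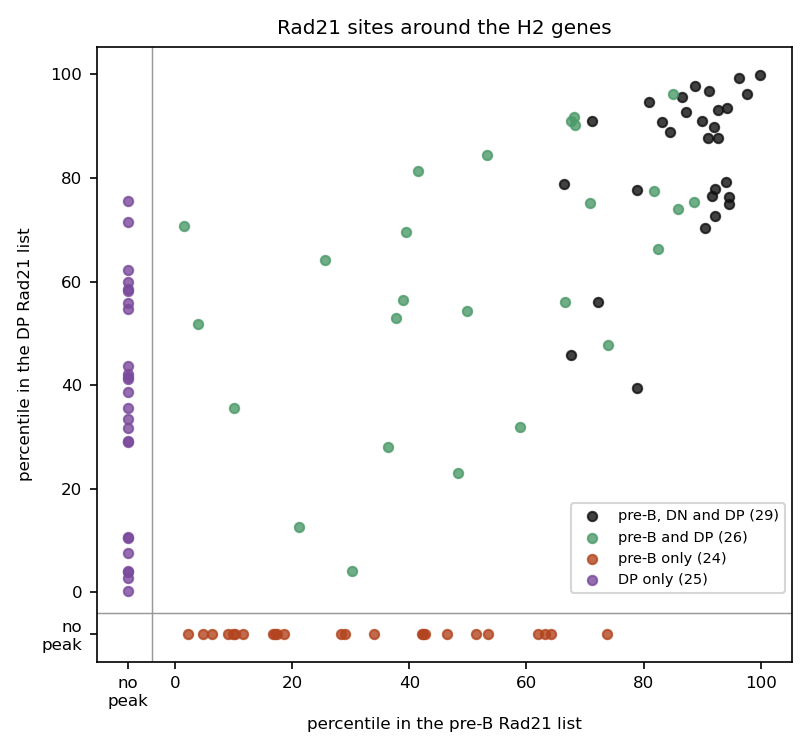
Within-list percentile of each of the 104 merged Rad21 sites in the pre-B list (horizontal) and the DP list (vertical), with sites that lack a peak in a list placed at its "no peak" position and colours for the lists that call the site. Sites called in 1 list alone reach 73.8 in pre-B and 75.6 in DP, while a site called in all 3 cell types reaches 99.9 in DP and 99.96 in pre-B.

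CTCF calls in pre-B cells were largely found again in IL7-cultured pro-B cells. Of 101 pre-B peaks 91 were called there (90.1%, 82.5 to 95.1), against 96% of the whole list, and of 121 cultured pro-B peaks 98 were called in pre-B cells (81.0%, 72.9 to 87.6), against 58.6%. With lists of equal length these shares were 82.2% (73.3 to 89.1, against 84.8% of the whole list) and 97.7% (91.9 to 99.7, against 85.5%). All 45 pre-B peaks between genes were also in the cultured list, near the 97% of such peaks genome-wide. The 10 that were not included 5 in the Q stretch, where 12 of 17 were shared: at the promoters of H2-Q8 and H2-Q6 and within H2-Q8 (percentile 24.9), H2-Q6 (31.4) and H2-Q7 (15.7). In these 5 peaks 64.4% to 94.8% of 36-base words recurred elsewhere on chromosome 17, and the part of repeated sequence in the difference was not tested. The other 5 lay near H2-Ke2, H2-Eb1, H2-T9 and H2-M6-ps.

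How often pre-B CTCF peaks of the windows held the consensus, compared with all peaks, depended on the mismatches allowed. A match with at most 2 mismatches was present in 49 of 101 peaks (48.5%, 38.4 to 58.7), against 48.3% of all 42250 peaks. Sequence 2000 bp away held such a match in 19 of 101 (18.8%, 11.7 to 27.8), against 9.04% for the whole list. With at most 1 mismatch the shares were 24.8% (16.7 to 34.3) in the peaks of the windows and 16.1% in all peaks, and 2.97% and 1.03% in the sequence 2000 bp away. The matches with 1 mismatch include the 6 upstream copies, the 3 copies near H2-K2, H2-D1 and H2-Q2, and the printed T pair. The interval counts near-copies as separate draws, and their part in the higher share was not tested. Of the 48 matches with at most 2 mismatches and a clear strand, 24 were on each strand, and 25 pointed toward the nearest H2 start and 23 away.

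The other genes of antigen presentation were set beside the H2 genes. Of 29 genes outside the H2 symbols, DP Rad21 lay at the promoters of 18 (26.1% of all protein-coding genes), IL7-cultured pro-B CTCF at 10 (27.1%), pre-B Rad21 at 8 (14.3%), pre-B CTCF at 4 (18%) and DN Rad21 at 0 (2.42%). At equal list length the counts were 5 for DP Rad21 (5.34%), 4 for IL7-cultured pro-B CTCF (15.3%) and 1 for pre-B Rad21 (2.91%). Of the 14 genes of class I peptide supply and loading, DP Rad21 lay at 11 and pre-B Rad21 at 6, and at equal list length at 3 and 1. Tap1, a subunit of the peptide transporter, and Psmb9, an immunoproteasome subunit, share a promoter within the class II region, and it stood at 74.1 in DP and 30.6 in pre-B Rad21. Its peak counts for both genes in the Rad21 totals above, and in DP also at equal list length. B2m, the light chain of class I, stood at 55.3 in DP and 4.07 in pre-B. Erap1, which trims peptides, had pre-B CTCF at 85.8, pre-B Rad21 at 83.7 and DP at 79.5. Psmb10, Calr and Pdia3 were the other genes with pre-B CTCF, at 46.1, 47.4 and 33.4. Psmb8, Psme1, Canx, Tapbp and Tapbpl had DP Rad21 at 40.9, 4.14, 30.2, 9.41 and 59.8, and Tap2 had IL7-cultured pro-B CTCF at 41.8.

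Of the 3 class I regulators, 2 had Rad21 at the promoter in DP cells (26.1% of all protein-coding genes) and in pre-B cells (14.3%), and at equal list length 1 in DP, Irf2, and 0 in pre-B cells. Irf1 and Irf2 stood in DP Rad21 at 66.4 and 78.5 and in pre-B Rad21 at 21.7 and 47.4, while Nlrc5, the class I transactivator, had no promoter peak in any list. Among 8 regulators of class II, DP Rad21 lay at Creb1 (92.2), Rfxank (56.4), Nfyb (54.5) and Nfya (40.5), and IL7-cultured pro-B CTCF at Creb1 (18.0), Nfya (16.5), Rfxank (15.9) and Rfx5 (6.86). At equal list length Creb1 in DP was the one call left. Ciita, the class II transactivator, had no promoter peak in any list at the gene start used. Other starts within the gene were not examined. Of 4 class II chaperone and protease genes Ctsl alone had one, at 61.4 in DP, which was lost at equal list length.

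The window edge was set by the rule. The last places inside lay 19408, 19394 and 19208 bp from the first H2-Q2, H2-Ob and H2-M3, with pre-B CTCF at 28.1, 70.8 and 70.3. The first places outside lay 20493, 20865 and 21549 bp from H2-M10.6, H2-D1 and H2-M6-ps. Pre-B CTCF there was 28.5 and 24.0 at the first and the last, and the place near H2-D1 was called in IL7-cultured pro-B cells alone, at 38.2.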

How the data were processed

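Each of the 5 peak lists came from 1 ChIP-seq library. The authors removed duplicates and adapters, placed the reads on mm9 by Bowtie (0.12.9 in the submitters' processing notes; the methods name another version), kept those with up to 3 places, and called peaks against input with MACS 1.4.2 at a false discovery rate of 1%. The deposited value is the MACS score of each peak, which grows with depth and was therefore ranked within its list only. Read numbers are unknown and read length is not given in the sources used here. The 4 input libraries were not analysed here, and pre-B CTCF and Rad21 share 1 input.

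Windows, promoters, overlaps of at least 1 bp and motif matches were computed with Python 3.11.15, numpy 2.4.6 and pysam 0.24.0 on the NCBIM37 (mm9) genome and GENCODE M1, and checked on simulated data. Exact Clopper-Pearson 95% intervals came from scipy 1.17.1. The 36-base words are a chosen length, not the read length. Ciita and Psmb9 have 2 annotation entries each, of which the longest was used. Named were H2 genes with a promoter peak or with none in their window, the top place of each block, places called in all lists, and up to 6 Rad21 sites of each lineage. The printed sequences, the 2 to 5 kb zone and the class II split were chosen after their values were seen. Members and gene lists were chosen with earlier results of these data known. Alternatives were a score of at least 100, equal list length, windows of 10 and 50 kb, protein-coding H2 genes only, peak midpoints in place of any overlap, an overlap of 50% of the shorter peak, other promoter definitions and other mismatch limits.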

Additional observations from a re-analysis of the deposited data

How the results depend on the processing

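Of 194 values recomputed under the alternatives, 161 stayed within their counting interval (or within 1.5 times, for counts of genes) and 33 moved. Some that stayed could not move, since equal length leaves the shortest of the lists compared as it was. Limiting lists to equal length moved the most. Pre-B CTCF peaks with Rad21 then made up 84.52%, IL7-cultured pro-B CTCF peaks called in pre-B 97.7% and the reverse 82.18%. Rad21 sites in DP alone made up 11.63%, in pre-B and DP 13.95%, in pre-B alone 6.977% and in all 3 cell types 53.49%. The share between genes was 71.43% for DP and 67.57% for pre-B Rad21, and the promoter share 8.571% and 13.51%. Density over the genome average was 4.047 for IL7-cultured pro-B CTCF, 7.09 for DP and 7.495 for pre-B Rad21. Promoter peaks remained at 8 H2 genes, and among pathway genes at 4 for IL7-cultured pro-B CTCF, 5 for DP and 1 for pre-B Rad21. With scores of at least 100, IL7-cultured pro-B CTCF peaks called in pre-B made up 89.22%, and pathway genes numbered 5 for that list and 5 for pre-B Rad21. Shorter lists hold fewer weak peaks by construction, and any other cause was not tested.

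A promoter of 2.5 kb either side raised the promoter share to 45.45% for IL7-cultured pro-B CTCF, 46.53% for pre-B CTCF, 37.93% for DN, 51.85% for DP and 46.25% for pre-B Rad21, with 22 H2 genes, 7 pathway genes for pre-B CTCF and 1 for DN. Requiring the peak midpoint gave 18.52% for DP, and all transcript starts 28.93% for IL7-cultured pro-B CTCF. The motif was in 24.75% of peaks at 1 mismatch and 86.14% at 3. With 1 library per condition, differences between animals could not be measured. No paired analysis was possible because each condition has 1 library and no result comes from a test.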
